A study of Mus musculus with 6 samples.

Results

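Signal regulatory protein alpha (SIRPα, gene Sirpa), its ligand CD47 and 7 intracellular partners were followed in bulk RNAseq of cultured lung group 2 innate lymphoid cells (ILC2s). These 9 genes, Sirpa, Cd47, Ptpn6, Ptpn11, Skap2, Ptk2b, Lyn, Fyn and Fyb, were picked by name from the 17831 genes of the deposited table, and all 9 were measured in every library and passed the filter on low counts. The comparison set 3 SIRPα KO libraries against 3 WT libraries, and it addressed how transcripts of the receptor's own pathway differed between these groups. WT mice were labelled CB57BL/6 and SIRPα KO mice SIRPalphatm1Ynliu/J, a targeted allele carried by the whole animal rather than by ILC2s alone. Mice were 6 to 8 weeks old and matched for age and sex. Animals of both groups were given rmIL-33 (0.5 μg a day) through the nose for 3 days, and no group without IL-33 was sequenced. On day 4, ILC2s were sorted from the lung as CD45+ lineage- CD127+ ST2+ cells and kept ex vivo in medium with rmIL-2 and rmIL-7, with the time stated once as 18 h and once as 24 h.

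ILC2s are tissue lymphocytes that lack antigen receptors, respond to the epithelial alarmin IL-33 through its receptor ST2, and secrete type 2 cytokines in the airway. SIRPα is an inhibitory receptor best known from macrophages and other myeloid cells, where its binding to CD47 on a neighbouring cell gives the "don't eat me" signal. On engagement, Src family kinases phosphorylate tyrosines in the cytoplasmic tail of SIRPα, and the phosphatases SHP-1 (Ptpn6) and SHP-2 (Ptpn11) dock there and remove phosphate from downstream proteins. The tail also assembles a complex of the adaptors SKAP2 and ADAP (Fyb) with the focal adhesion kinase PYK2 (Ptk2b), and LYN and FYN are Src family kinases that act in such receptor complexes.

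Between 13980499 and 19051507 reads were counted on genes per library. Levels below are normalized read counts (CPM, scaled to library size), and where genes are compared with each other, CPM per kilobase (kb) of the longest annotated transcript. The labels gave WT replicates 1 and 2 one code number (37) and SIRPα KO replicates 2 and 3 another (44), each with a suffix on the second library, while WT replicate 3 and SIRPα KO replicate 1 had codes of their own. The design text speaks of duplicates, and nothing states that libraries of one code came from separate animals, so the p values below may partly measure technical spread. WT replicate 3 stood apart, with a correlation of log2 CPM to the other libraries of 0.850 to 0.930, against 0.962 between WT replicates 1 and 2 and 0.981 to 0.986 among the SIRPα KO libraries. The 12 ILC2 markers summed to 13700 to 15136 CPM in WT and 20134 to 20733 CPM in SIRPα KO, most of it Il5, which was at 8448 to 9711 CPM and 12589 to 13241 CPM. Not all ILC2 markers were higher, since Thy1 fell (log2 fold change -2.06, adjusted p = 0.0139, edgeR), and Icos and Klrg1 lay lower in every SIRPα KO library without passing (adjusted p = 0.140 and 0.124). Of the other cell types, B cell markers (6 genes) summed to 216 to 479 CPM in WT and 23.1 to 84.6 CPM in SIRPα KO, T cell markers (5 genes) to 18 to 23.5 and 4.77 to 5.56 CPM, and dendritic cell markers (7 genes) to 172 to 253 and 106 to 123 CPM. Of the 6 dendritic cell markers tested, 1 was called lower (5.81% of all genes were). It was Cd74, at 83.0, 91.0 and 147 CPM in WT and 46.8, 38.9 and 42.6 CPM in SIRPα KO. H2-Ab1 lay lower in every SIRPα KO library without passing (adjusted p = 0.0519, edgeR). Zbtb46, Xcr1, H2-Aa and Itgax overlapped, and the log2 fold change of Itgax was positive (0.73). Eosinophil, mast cell and basophil markers (8 genes) summed to 72.0 to 127 CPM in WT and 168 to 210 CPM in SIRPα KO, but without Kit, which took most of both sums, the other 7 overlapped (9.78, 10.4 and 25.7 CPM against 30.8, 4.36 and 4.34 CPM). The summed markers of macrophages and monocytes, of neutrophils and of lung epithelium overlapped between the groups. Among the epithelial markers, Scgb1a1 had 1 read in SIRPα KO replicate 1 and 525 to 1073 in the other libraries. Epcam was called lower (log2 fold change -1.18, adjusted p = 0.0354, edgeR). The neutrophil marker Mpo had 166 reads in WT replicate 3 and 0 elsewhere. In bulk RNA, fewer cells of a type and less RNA per cell cannot be told apart.

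Sirpa was the least abundant of the 9 genes, and its reads did not vanish in the SIRPα KO libraries. Sirpa (chromosome 2, 129592835 to 129632228 of mm10, plus strand) had 149, 96 and 73 reads in WT replicates 1, 2 and 3 and 48, 85 and 28 reads in SIRPα KO replicates 1, 2 and 3. After scaling these were 8.57, 6.83 and 4.83 CPM in WT and 3.07, 4.46 and 1.74 CPM in SIRPα KO. Every SIRPα KO library lay below every WT library, but the gap between WT replicate 3 and SIRPα KO replicate 2 was within counting error, with exact Poisson 95% intervals of 3.79 to 6.08 CPM and 3.56 to 5.51 CPM, which cover counting error only. The fitted difference was a log2 fold change of -1.12 ± 0.42 (SE, n = 3 against 3 libraries; 95% interval -2.10 to -0.15), 2.18-fold lower in SIRPα KO, and it did not pass the threshold (adjusted p = 0.115 by edgeR's quasi-likelihood test). The 2 SIRPα KO libraries of code 44 differed from each other by 2.57-fold in Sirpa CPM, more than the fitted difference between genotypes. Which exons the allele removes is not stated in the sources used here, and counts per gene do not show where in Sirpa the remaining reads fell, so they are no test of the labels.

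SIRPα is abundant on myeloid cells, so the macrophage and monocyte markers were read beside it, although the sort excluded cells positive for CD11b, CD11c or Gr1. They summed to 49.1, 50.3 and 138 CPM in the WT libraries and to 87.0, 128 and 114 CPM in the SIRPα KO libraries, and the groups overlapped. Of that list, Fcgr1, C1qa, C1qb and C1qc had 0 reads in every WT library and at most 12 in any SIRPα KO library. Others were well above 0, such as Lyz2 with 367, 321 and 1240 reads in WT and 749, 1380 and 1040 in SIRPα KO. Of the 11 tested, 1 was called higher (5.94% of all genes were) and 1 lower (5.81%). Itgam (CD11b) rose from 8, 56 and 20 reads to 146, 207 and 214 (adjusted p = 0.0454, edgeR). Ly6c2 fell from 24, 17 and 12 reads to 0 in every SIRPα KO library (adjusted p = 0.0197, edgeR). The part of such cells in the Sirpa levels was not tested. Of the related genes of the SIRP family, Sirpb1c had 0, 2 and 17 reads in WT and 19, 15 and 11 in SIRPα KO, and Sirpb1b had 0, 0 and 11 in WT and 2, 3 and 4 in SIRPα KO, so both were close to absent in WT replicates 1 and 2.

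Cd47 was the one gene of the 9 that passed the threshold, and it fell. Cd47 (chromosome 16, 49800533 to 49915010, plus strand) encodes a broadly expressed membrane protein that serves as the ligand of SIRPα and also associates with integrins and binds thrombospondin. It was measured at 388, 345 and 447 CPM in WT and at 252, 237 and 249 CPM in SIRPα KO. All SIRPα KO libraries lay below all WT libraries, and the spread within SIRPα KO was small. The log2 fold change was -0.68 ± 0.12 (SE, n = 3 against 3; 95% interval -0.95 to -0.40), 1.6-fold lower in SIRPα KO, with an adjusted p of 0.0184 (edgeR). Libraries that share a code differed by 1.13-fold (WT) and 1.05-fold (SIRPα KO) in Cd47. Without WT replicate 3, the library that stood apart, the log2 fold change was -0.57 with an adjusted p of 0.00516. With any SIRPα KO library left out the adjusted p rose to 0.0950 to 0.122 (edgeR), and with the libraries of one code summed to 2 samples against 2 the log2 fold change was -0.71 with an adjusted p of 0.134. Correcting for the length and GC content of transcripts gave -1.20 (adjusted p = 0.0194).

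B cells and T cells also carry Cd47, and the sort excluded them by CD45R, CD3ε and other lineage markers. Their summed markers were lower in SIRPα KO, as given above. Of the tested markers, 5 of 6 for B cells and 1 of 2 for T cells were called lower (edgeR), where 5.81% of all genes tested were. The T cell call was Cd3g, which made up most of that sum, and Cd3e did not pass (adjusted p = 0.780, edgeR). The part of these cells in the Cd47 difference was not tested.

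**Figure D1:**
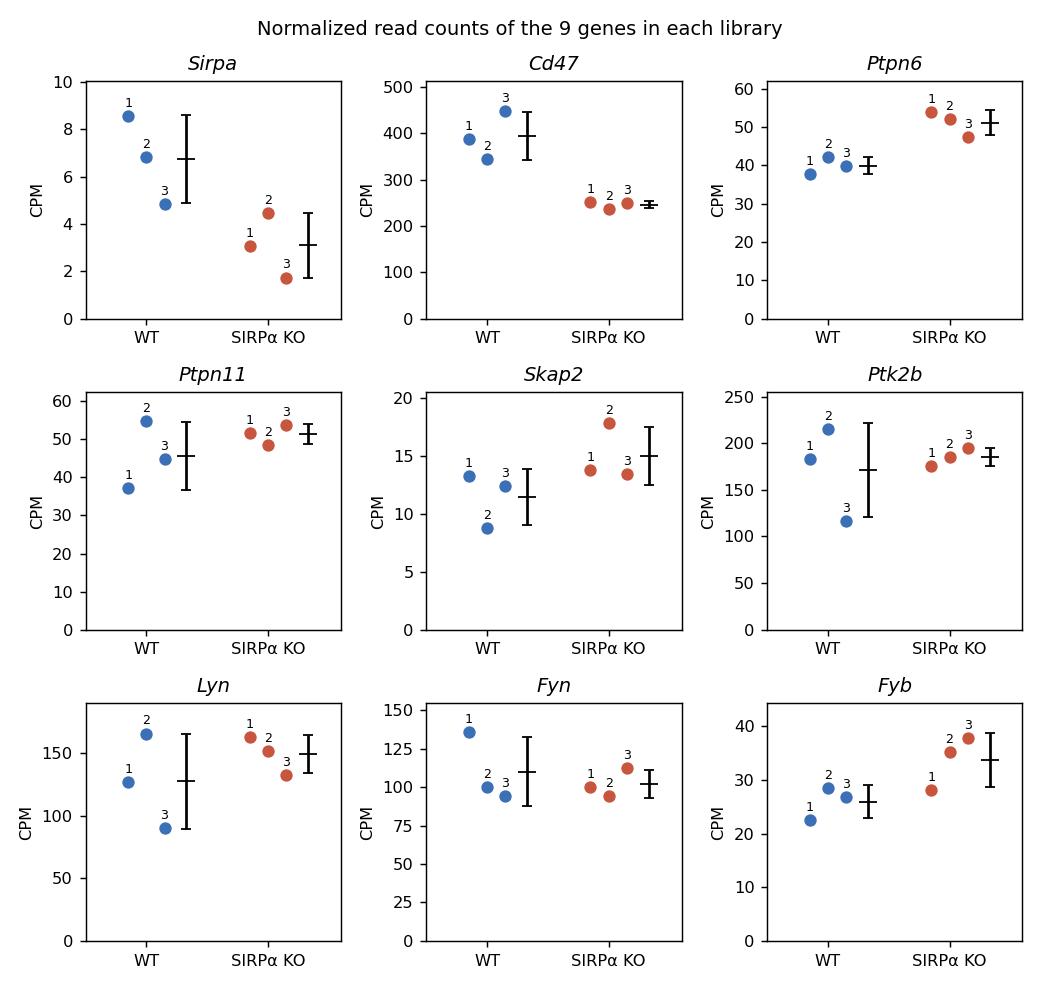
Normalized read counts (CPM, y axes from 0, one scale per gene) of the 9 genes in each WT (blue) and SIRPα KO (red) library, numbered by replicate, with the mean and SD of 3 libraries as a black bar. Sirpa and Cd47 lie lower in every SIRPα KO library, Ptpn6 and Skap2 lie higher in every SIRPα KO library, and the groups overlap in the other 5.

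The promoters of Cd47, which fell, and of the phosphatase pair Ptpn6 and Ptpn11, which are related genes at different levels, are printed here to show the sequence at their RefSeq starts. Of the 9 genes, 6 had a RefSeq entry (GRCm38.p6, 250 bases before to 50 bases after the start). The windows are Cd47 at chr16:49855404-49855703 (plus strand), Ptpn6 at chr6:124738660-124738959 (minus strand) and Ptpn11 at chr5:121191348-121191647 (minus strand), each written 5′ to 3′ along the gene. The Cd47 window lies inside the GENCODE span given above, whose start is farther upstream, while the windows of Ptpn6 and Ptpn11 cross the 5′ ends of their GENCODE spans. Capitals mark the NRF1 motif GCNTGCGC or the cAMP response element TGACGTCA, searched on both strands, which do not overlap each other here.
Cd47 promoter: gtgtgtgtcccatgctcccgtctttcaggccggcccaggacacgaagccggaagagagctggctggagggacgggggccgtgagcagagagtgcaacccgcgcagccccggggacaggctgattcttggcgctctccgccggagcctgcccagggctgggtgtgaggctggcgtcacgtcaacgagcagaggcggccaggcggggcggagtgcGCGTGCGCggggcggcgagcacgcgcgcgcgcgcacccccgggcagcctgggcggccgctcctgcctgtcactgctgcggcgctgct
Ptpn6 promoter: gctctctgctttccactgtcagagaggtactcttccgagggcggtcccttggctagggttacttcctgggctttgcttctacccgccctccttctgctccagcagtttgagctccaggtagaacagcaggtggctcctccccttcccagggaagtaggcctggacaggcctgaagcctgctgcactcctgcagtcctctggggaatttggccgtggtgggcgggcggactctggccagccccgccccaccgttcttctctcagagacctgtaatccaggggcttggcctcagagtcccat
Ptpn11 promoter: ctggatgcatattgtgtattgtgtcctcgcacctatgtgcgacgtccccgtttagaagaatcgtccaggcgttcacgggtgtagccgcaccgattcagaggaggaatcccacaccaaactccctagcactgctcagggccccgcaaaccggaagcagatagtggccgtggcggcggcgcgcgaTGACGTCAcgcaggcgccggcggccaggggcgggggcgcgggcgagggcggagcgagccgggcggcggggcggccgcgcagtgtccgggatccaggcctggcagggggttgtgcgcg
The Cd47 window held 35 CpG dinucleotides and 1 NRF1 motif, a motif found in 9.95% of 32851 promoters of the same length. The Ptpn11 window held 37 CpG dinucleotides and 1 cAMP response element, found in 1.79% of them. The Ptpn6 window held 8 CpG dinucleotides, close to the median of 7 over all promoters, and had neither motif. The GC box GGGCGG (35.7% of promoters, not capitalised) was searched as well and occurred 3, 5 and 4 times in the Cd47, Ptpn6 and Ptpn11 windows, and the ETS motif CCGGAAGT (3.89%) in none of the 3. Each match describes these letters only, and factor binding was not measured.

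The 2 SHP phosphatases differed in level and in how they stood between the groups. Ptpn6 (chromosome 6, 124720707 to 124738714, minus strand) encodes SHP-1, the phosphatase typical of blood cells, which mostly restrains signalling. It was at 37.7, 42.1 and 39.9 CPM in WT and at 54.0, 52.0 and 47.4 CPM in SIRPα KO, and the groups did not overlap. The log2 fold change of 0.36 ± 0.14 (SE, n = 3 against 3; 95% interval 0.041 to 0.68) did not pass the threshold after adjustment (adjusted p = 0.121, edgeR), whereas it did with DESeq2 (0.38, adjusted p = 0.0322) and with the length and GC correction (0.53, adjusted p = 0.0428). An annotated antisense gene, Gm20531, overlaps 195 exonic bases of Ptpn6 and had at most 5 reads in a library. Ptpn11 (chromosome 5, 121130533 to 121191397, minus strand) encodes SHP-2, a ubiquitous phosphatase that in many receptor pathways promotes RAS and ERK signalling. It was at 37.1, 54.8 and 44.8 CPM in WT and at 51.6, 48.5 and 53.8 CPM in SIRPα KO. These groups overlapped, and the log2 fold change of 0.17 ± 0.17 (95% interval -0.23 to 0.57) did not pass the threshold (adjusted p = 0.520, edgeR) and turned to -0.23 with the length and GC correction.

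Per kb of transcript, Ptpn6 was above Ptpn11 in all 6 libraries. The ratio of Ptpn6 to Ptpn11 per kb was 3.27, 2.48 and 2.88 in WT and 3.37, 3.46 and 2.85 in SIRPα KO. The ratios of the 2 groups overlapped, and the exact permutation test of their log2 values gave p = 0.3 (two-sided; adjusted over 4 ratios, 0.533), where 3 against 3 libraries can give no p below 0.1.

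None of the 3 kinases passed the threshold. Lyn (chromosome 4, 3678115 to 3813122, plus strand), a Src family kinase that in myeloid and B cells phosphorylates inhibitory receptors, was at 127, 166 and 90.0 CPM in WT and at 163, 152 and 133 CPM in SIRPα KO. WT replicate 3 was lowest and the groups overlapped, with a log2 fold change of 0.23 ± 0.21 (95% interval -0.27 to 0.72, adjusted p = 0.492, edgeR). Without WT replicate 3 the value was 0.037, and without WT replicate 2 it was 0.46. The pseudogene Gm11787 matches 30.3% of the Lyn transcript at 95% identity or more and had 9 to 20 reads in a library.

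Fyn (chromosome 10, 39368855 to 39565381, plus strand), the Src family kinase more typical of T cells and neurons, was at 136, 100 and 94.2 CPM in WT and at 99.9, 94.4 and 112 CPM in SIRPα KO. WT replicate 1 was above all other libraries, which overlapped. The log2 fold change was -0.11 ± 0.17 (95% interval -0.49 to 0.28, adjusted p = 0.691, edgeR), and without WT replicate 1 it was 0.077. Ptk2b (chromosome 14, 66153257 to 66281052, minus strand), which encodes the calcium-responsive kinase PYK2, was at 183, 215 and 116 CPM in WT and at 175, 185 and 194 CPM in SIRPα KO. As with Lyn, WT replicate 3 was the lowest library, and the SIRPα KO libraries lay between the WT values. Its log2 fold change of 0.11 ± 0.21 (95% interval -0.38 to 0.59, adjusted p = 0.756, edgeR) became -0.10 without WT replicate 3. Set against each other per kb, Lyn to Fyn gave ratios of 0.961, 1.70 and 0.983 in WT and 1.68, 1.66 and 1.21 in SIRPα KO, so Lyn was below Fyn in 2 WT libraries alone (exact permutation p = 0.4, two-sided; adjusted over 4 ratios, 0.533).

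Both adaptors had a positive log2 fold change that did not pass the threshold. Skap2 (chromosome 6, 51857422 to 52012549, minus strand) encodes an adaptor that links integrin and SIRPα signals to the actin cytoskeleton. It had 231, 123 and 187 reads in WT and 215, 340 and 216 reads in SIRPα KO, or 13.3, 8.75 and 12.4 CPM against 13.7, 17.8 and 13.4 CPM. The groups did not overlap, although WT replicate 1 and SIRPα KO replicates 1 and 3 were almost level. The log2 fold change was 0.39 ± 0.24 (95% interval -0.17 to 0.94, adjusted p = 0.305, edgeR), and -0.21 with the length and GC correction. Fyb (chromosome 15, 6522853 to 6663313, plus strand) encodes ADAP, a scaffold that couples receptors to integrin activation and binds SKAP proteins. It was at 22.6, 28.4 and 26.9 CPM in WT and at 28.1, 35.2 and 37.8 CPM in SIRPα KO. SIRPα KO replicate 1 lay within the WT values and the other SIRPα KO libraries above them, with a log2 fold change of 0.38 ± 0.18 (95% interval -0.047 to 0.80, adjusted p = 0.196, edgeR). A processed pseudogene, Gm7666, shares 231 exonic bases with Fyb on the same strand and had 72 to 107 reads in a library. The ratio of Fyb to Skap2 per kb was 3.76, 7.18 and 4.8 in WT and 4.52, 4.36 and 6.24 in SIRPα KO and overlapped between the groups (exact permutation p = 1, two-sided).

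**Figure D2:**
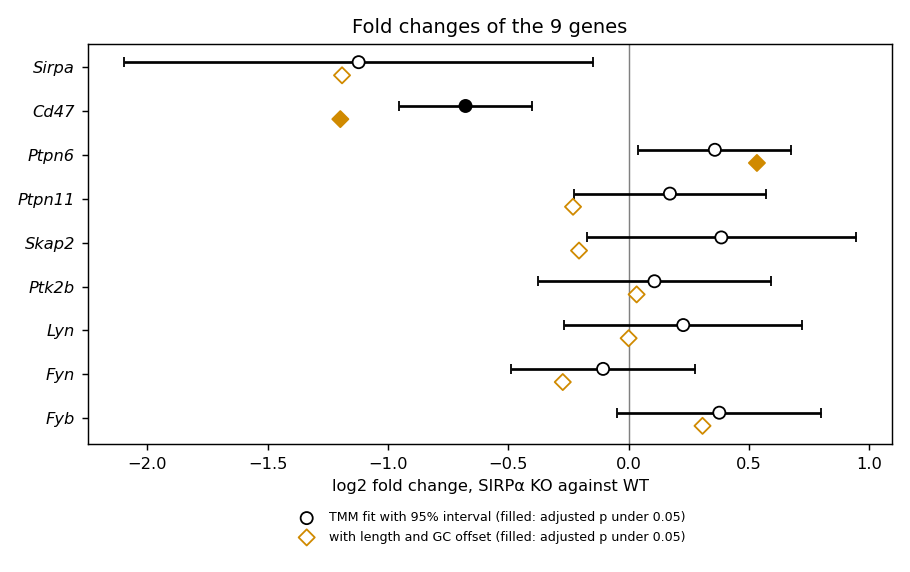
Log2 fold changes (x axis, SIRPα KO against WT) of the 9 genes, with the edgeR fit and its 95% interval as circles and bars, and the fit corrected for transcript length and GC content as diamonds. Filled symbols have an adjusted p under 0.05, which Cd47 has in both fits and Ptpn6 only in the corrected one (0.53), and the diamonds of Ptpn11 (-0.23) and Skap2 (-0.21) lie on the other side of 0 from their circles.

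Set in order per kb of transcript, the ligand led and the receptor came last. In WT the levels were 74.9 ± 9.78 CPM per kb for Cd47 (SD, n = 3), 42.5 ± 12.5 for Ptk2b, 36.8 ± 11 for Lyn, 30.9 ± 6.29 for Fyn, 17.3 ± 0.960 for Ptpn6, 9.73 ± 1.13 for Fyb, 6.12 ± 1.19 for Ptpn11, 1.95 ± 0.407 for Skap2 and 1.69 ± 0.469 for Sirpa. The ranges of Ptk2b and Lyn, of Lyn and Fyn, and of Skap2 and Sirpa overlapped, and the other neighbours in that order did not overlap. The order of the means was the same in SIRPα KO, at 46.8 ± 1.55, 45.8 ± 2.38, 43.1 ± 4.42, 28.7 ± 2.58, 22.2 ± 1.46, 12.6 ± 1.88, 6.89 ± 0.358, 2.54 ± 0.419 and 0.776 ± 0.342 CPM per kb. There Cd47 no longer stood clear of Ptk2b and exceeded it in 1 of 3 libraries, and Sirpa no longer reached the range of Skap2. Among all genes tested, the mean level of Cd47 per kb was at the 89.4th percentile and that of Sirpa at the 19th. Per kb, Cd47 exceeded Sirpa 34.4, 38.3 and 70.2 times in WT and 62.2, 40.2 and 109 times in SIRPα KO, and these ratios overlapped (exact permutation p = 0.4, two-sided; adjusted over 4 ratios, 0.533).

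**Figure D3:**
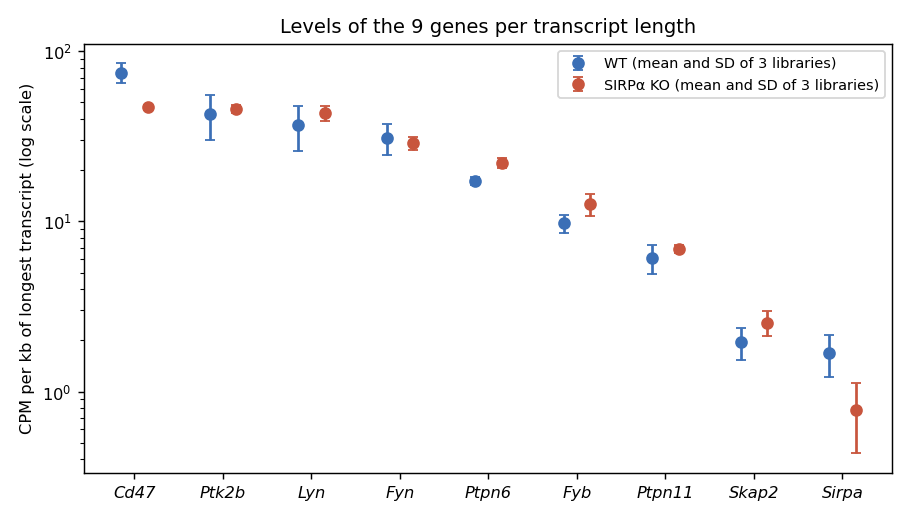
Mean and SD (3 libraries per group) of the 9 genes in CPM per kb of the longest transcript (y axis, log scale), in the order of the WT means, for WT (blue) and SIRPα KO (red). The levels run from 74.9 (Cd47) to 1.69 (Sirpa) in WT, and Cd47 comes down to the level of Ptk2b in SIRPα KO.

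Of the 9 genes, 1 passed an adjusted p of 0.05 (edgeR), where 11.7% of the 13623 genes tested did, and 3 (Sirpa, Cd47 and Ptpn6) had an unadjusted p under 0.05, where 32% of all genes did. The groups did not overlap in 4 of them (Sirpa and Cd47 lower, Ptpn6 and Skap2 higher), where 42.8% of all genes did not overlap (21.6% higher and 21.2% lower). All these shares were near those of the whole table. The median log2 fold change was 0.17 over the 9 genes and -0.025 over all genes tested, and with the length and GC correction the median over the 9 genes was -0.21, and 2 of the 9 passed (Cd47 and Ptpn6), where 8.91% of all genes did. DESeq2 called the same 2, where it called 24.4% of the genes it tested.

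By the root mean square difference of centred log2 CPM over the 6 libraries, the 5 genes of 9145 whose profile was nearest to that of Cd47 were A430005L14Rik (0.0237), Capg (0.0345), Tecr (0.0372), Uqcrh (0.0408) and Calm3 (0.0448). Capg, which encodes an actin-capping protein, was at 1217, 1104 and 1389 CPM in WT and at 746, 747 and 778 CPM in SIRPα KO, with WT replicate 3 highest as in Cd47. Tecr, an enzyme of very long chain fatty acid synthesis, was at 251, 238 and 305 CPM in WT and at 173, 166 and 171 CPM in SIRPα KO. The log2 fold changes of all 5 lay between -0.71 (Capg) and -0.61 (Calm3), which follows from their choice by the profile of Cd47 in these libraries. With the length and GC correction, under which Cd47 was at -1.20, Capg was at -0.24 and Tecr at -0.13. Sirpa, with few reads, had less close neighbours, from Tfeb (0.280) and Epcam (0.294) to Stoml1 (0.310), Nlrx1 (0.312) and Cd247 (0.315).

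The wider pathway was read from 6 lists of 70 genes, of which 67 were in the table and 56 were tested. Of these, 12 had an adjusted p under 0.05 (edgeR), 6 of them higher in SIRPα KO (5.94% of all genes tested were) and 6 lower (5.81% of all genes), and 44 did not pass. The 6 higher include Btla, which passed the filter on low counts only through the SIRPα KO libraries. The groups did not overlap in 24 of the 56 (42.9%, against 42.8% of all genes), and the median log2 fold change was 0.015. All 12 calls remained with DESeq2 and without WT replicate 3, but none remained with any SIRPα KO library left out or with the libraries of one code summed. Without WT replicate 1, the calls of Lck, Ptprc, Vasp, Was and Frs2 were lost (adjusted p = 0.0534 to 0.0742, edgeR), and without WT replicate 2 that of Itga4 was lost (adjusted p = 0.0592).

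On the side of CD47, 12 ligands and partners were tested, with 1 higher, 2 lower and a median log2 fold change of 0.079. Itgb3, the beta-3 integrin that pairs with CD47 in the thrombospondin and vitronectin receptor, fell from 268, 297 and 180 CPM in WT to 115, 126 and 131 CPM in SIRPα KO (log2 fold change -1.0 ± 0.19, adjusted p = 0.0204, edgeR). Gnai2, an inhibitory G protein subunit of the kind that CD47 couples to and the most abundant gene of the list per kb, fell from 699, 685 and 793 CPM to 501, 497 and 477 CPM (-0.56 ± 0.097, adjusted p = 0.0177). Itga4, the alpha-4 integrin chain of VLA-4, rose from 25.6, 17.7 and 16.2 CPM to 40.5, 34.9 and 34.7 CPM (0.89 ± 0.21, adjusted p = 0.0388), and this call was lost with the length and GC correction (0.25, adjusted p = 0.494). In all 3 genes the groups did not overlap. Over the 12 tested, the groups did not overlap in 4 higher and 3 lower genes (21.6% and 21.2% of all genes). Itgav and Gnai3, named after their values were seen, were among the higher ones without passing. Their log2 fold changes were 0.95 and 0.57 (adjusted p = 0.0675 and 0.0832, edgeR). The thrombospondin gene Thbs1, a soluble CD47 ligand, varied widely within both groups, with 2, 75 and 23 reads in WT and 8, 323 and 210 in SIRPα KO (adjusted p = 0.273, edgeR).

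Other receptors that recruit SHP-1 or SHP-2 were represented by 10 tested genes, of which 2 were higher and 0 lower (median log2 fold change -0.10). Pdcd1, which encodes the inhibitory receptor PD-1 and was the most abundant of them per kb, was at 407, 426 and 423 CPM in WT and at 356, 352 and 349 CPM in SIRPα KO. These groups did not overlap, but the log2 fold change of -0.25 ± 0.088 did not pass (adjusted p = 0.102, edgeR) and was 0.0066 with the length and GC correction. Pecam1, an adhesion receptor with an inhibitory tail, rose from 27.4, 25 and 16.2 CPM to 40.8, 43.8 and 40.3 CPM (0.87 ± 0.22, adjusted p = 0.0421). Btla, an inhibitory receptor of lymphocytes, was named after its values were seen, with 3, 1 and 0 reads in WT and 48, 54 and 29 in SIRPα KO. Against a floor of 3 reads in each WT library it was at least 13.2-fold higher, and with Btla set to that bound the median of the list stayed at -0.10. Btla passed the filter on low counts only through the SIRPα KO libraries, so its call describes these reads and is no test.

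Among the other Src family kinases and their regulators (7 tested, median 0.015), 1 was higher and 1 lower. Ptprc, which encodes CD45, the phosphatase that activates Src family kinases, was the most abundant of them per kb and rose from 379, 445 and 215 CPM to 667, 638 and 630 CPM (0.90 ± 0.24, adjusted p = 0.0484, edgeR). Its call was lost with library totals alone as the scaling (adjusted p = 0.0534) and with the length and GC correction (0.42, adjusted p = 0.0734). Lck, the Src family kinase of T cells, was also named after its values were seen. It fell from 158, 81 and 187 reads in WT to 19, 58 and 34 reads in SIRPα KO (-2.09 ± 0.44, adjusted p = 0.0282, edgeR). The T cell markers summed to 18 to 23.5 CPM in WT and 4.77 to 5.56 CPM in SIRPα KO, most of it Cd3g. The part of T cells in the fall of Lck was not tested.

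The actin and integrin machinery around SKAP2 and ADAP gave 1 gene higher and 3 lower of 16 tested (median -0.048). Evl, an actin elongation factor of the ENA/VASP family that binds ADAP, fell from 28.3, 28.9 and 32.3 CPM to 10.5, 9.44 and 12.8 CPM (-1.45 ± 0.19, adjusted p = 0.0110, edgeR). Its relative Vasp, named after its values were seen, fell as well, from 256, 197 and 210 CPM to 140, 149 and 151 CPM (-0.59 ± 0.13, adjusted p = 0.0297). So did Was, which encodes the actin regulator WASP, from 104, 78.1 and 78.6 CPM to 53.2, 58.3 and 54.3 CPM (-0.65 ± 0.15, adjusted p = 0.0368). Each of these 3 genes had all SIRPα KO libraries below all WT libraries, and with the length and GC correction the calls of Was (-0.41, adjusted p = 0.124) and Vasp (-0.32, adjusted p = 0.116) were lost. Enah, the other ENA/VASP gene of the list, was at 12.3, 9.03 and 7.75 CPM in WT and 6.01, 10.7 and 9.12 CPM in SIRPα KO. Its groups overlapped and it did not pass (-0.17 ± 0.30, adjusted p = 0.730, edgeR). Ptk2, which encodes the focal adhesion kinase FAK, the closest relative of PYK2, rose from 47.6, 36.5 and 26.3 CPM to 70.5, 88.4 and 68.7 CPM (1.04 ± 0.23, adjusted p = 0.0305). Rap1b, a small GTPase of integrin activation and the most abundant gene of the list per kb, was at 710, 660 and 594 CPM in WT and at 785, 728 and 822 CPM in SIRPα KO (0.25 ± 0.10, adjusted p = 0.144).

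SHP-2 docking proteins and adaptors (10 tested, median 0.22) gave 1 gene higher and 0 lower. Frs2, a docking protein that recruits SHP-2 to growth factor receptors, rose from 19.5, 19.3 and 6.89 CPM to 36.7, 46.7 and 44.6 CPM (1.48 ± 0.37, adjusted p = 0.0410, edgeR), with WT replicate 3 far below the other libraries. The adaptor Grb2, the most abundant gene of this list per kb, was at 269, 199 and 276 CPM in WT and at 173, 185 and 223 CPM in SIRPα KO, and the groups overlapped (-0.36 ± 0.16, adjusted p = 0.171).

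**Figure D4:**
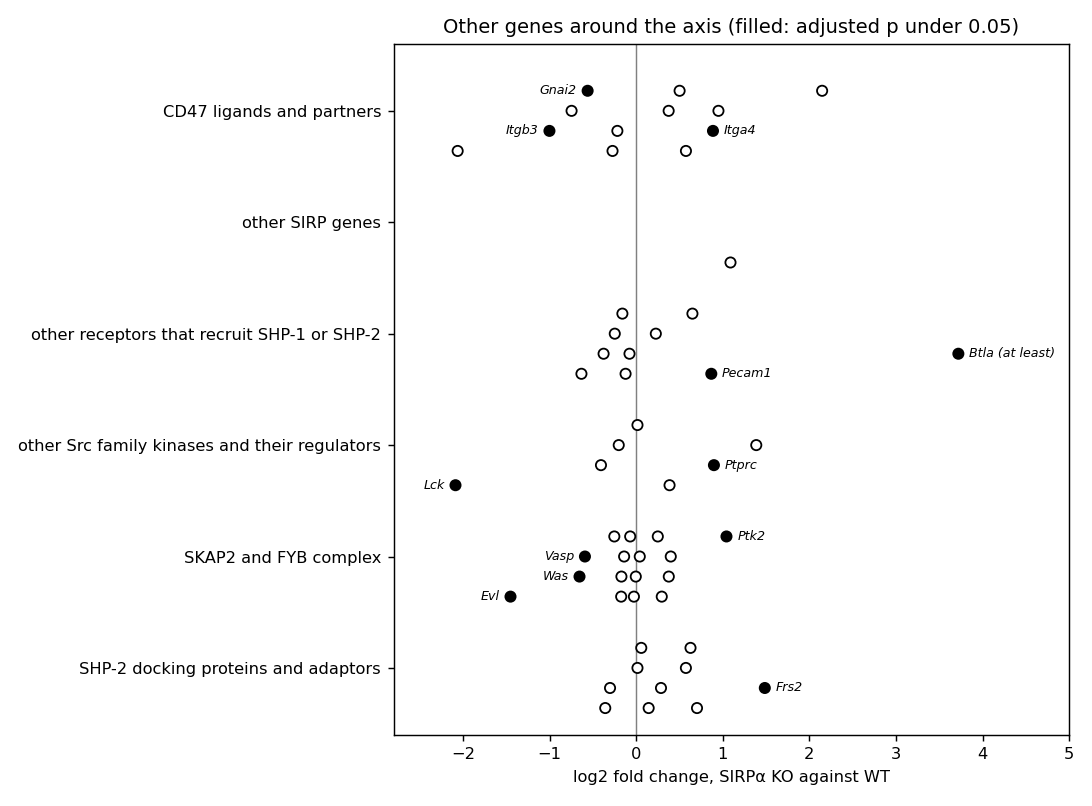
Log2 fold changes (x axis, SIRPα KO against WT) of the 56 tested genes in 6 lists around the pathway (y axis), 1 point per gene, spread vertically for legibility. Filled points have an adjusted p under 0.05 (edgeR), 6 on each side of 0, and Btla is drawn at its lower bound of 13.2-fold.

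How far the 3 members with an unadjusted p under 0.05 depended on the settings was seen from 15 alternative fits. Sirpa had a negative log2 fold change in all 15 and passed in none, from -1.48 without SIRPα KO replicate 2 to -0.83 without SIRPα KO replicate 3. Cd47 was negative in all 15 and passed in 11 of them. Ptpn6 was positive in all 15, passed in 2 of them, and was lowest with upper quartile scaling (0.26), which lowered the median log2 fold change of all genes to -0.13.

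**Figure D5:**
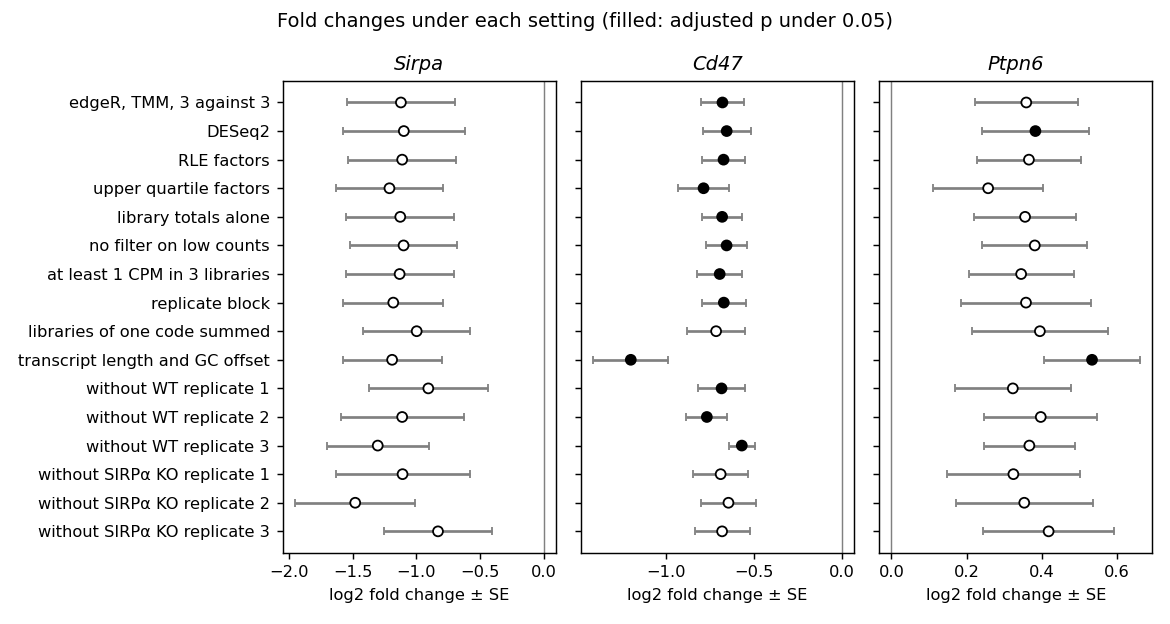
Log2 fold changes ± SE (x axes, SIRPα KO against WT, a separate scale per gene) of Sirpa, Cd47 and Ptpn6 in the edgeR fit and 15 alternatives (y axis), with filled points at an adjusted p under 0.05. Cd47 is filled in the edgeR fit and 11 alternatives, and open with the libraries of one code summed and with each SIRPα KO library left out.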

How the data were processed

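Bulk RNAseq was made from 10 pg of RNA per library with a low-input cDNA kit. The authors aligned reads with STAR to mm10 and GENCODE M21 in Partek software (STAR 2.7.8 and Partek 10.0 in the submitters' processing notes) and deposited estimated counts per gene, neither scaled nor whole. Handling of strand and multimapping reads is not given in the sources used here. The table holds 17831 genes, 147 of which are recorded column by column here. The remaining 17684 hold the same unit and entered the fit.

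Counts were rounded, filtered with filterByExpr (minimum count 10, total 15), scaled by TMM and tested by edgeR 4.0.16 (quasi-likelihood, genotype alone, Benjamini-Hochberg over 13623 genes, threshold 0.05) in R 4.3.3. The SE came from the F statistic. DESeq2 1.42.0 was an alternative, beside other scalings and filters, a replicate block, libraries of one code summed, a length and GC offset (spline, 5 degrees of freedom, 8921 genes) and leaving out each library. Procedures were tested on simulated data. Level percentiles and lengths use the longest GENCODE M21 transcript, and copies were sought with BLAST+ 2.17.0.

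Members and gene lists were chosen with earlier results of these data known. Named genes are the members, per list up to 3 called genes (average log2 CPM of at least 3, no overlap, largest change) and the most abundant per kb, the 5 nearest profiles of Cd47 and Sirpa, and markers. Of the listed genes, Thbs2, Sirpb1a, Gab1 and some markers were not analysed here. The n counts libraries.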

Additional observations from a re-analysis of the deposited data

How the results depend on the processing

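Of the 15 alternatives, Cd47 lost its call with the libraries of one code summed (-0.71) and with each SIRPα KO library left out. Its log2 fold change ran from -0.77 to -0.57 over the fits leaving out 1 library. Ptpn6 passed with DESeq2 (0.38) and with the length and GC correction (0.53). That correction turned Ptpn11 to -0.23, Skap2 to -0.21 and Pdcd1 to 0.0066. With 1 library left out, Ptk2b ran from -0.10 (without WT replicate 3) to 0.31, and Fyn from -0.20 to 0.077 (without WT replicate 1). Members called numbered 2 with DESeq2 and with the length and GC correction, 0 with codes summed (1 main), and 0 to 1 over the fits leaving out 1 library. In the wider lists, genes called higher (6) numbered 10 with DESeq2, 3 with no filter, 0 with codes summed and 0 to 12 with 1 library left out, and genes called lower (6) numbered 0 with codes summed and 0 to 7 with 1 library left out (3 without WT replicate 1, 0 without any SIRPα KO library). Of all genes, 809 were called higher and 791 lower by edgeR, 1757 and 1413 by DESeq2, 9 and 1 with codes summed, and 11 to 1464 and 5 to 1142 with 1 library left out (lowest without SIRPα KO replicate 1, highest without WT replicate 3). With no filter, 527 were called lower. WT libraries varied more (biological coefficient of variation 38.1%) than SIRPα KO libraries (15.2%). The causes were not tested. With codes summed, an exact permutation test of 2 against 2 could give no p below 0.333.

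Libraries with the same replicate number had correlations of their deviations of -0.139, 0.183 and 0.031 over 9146 genes, and not every library correlated best with its own number, so the numbers were not taken as pairs. With the replicate block, 669 genes were called higher and 449 lower, Cd47 was at -0.67 (adjusted p = 0.0354, edgeR), and the number of members called was 1. Of the 12 wider calls, 9 remained with the block, 8 with the length and GC correction and 7 with no filter.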
